A study of Drosophila melanogaster with 2 samples.

Results

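Tramtrack-GFP summits that lay deep inside genes made up 698 of the 3815 summits on the chromosome arms (18.3%, exact 95% interval 17.1 to 19.6%). They were chosen by position alone, without use of signal. Each summit of the authors' conservative peak list was kept if it fell in an intron of a protein-coding gene, in no annotated exon, and more than 3000 bp from the nearest annotated transcription start site (TSS) of any gene. These are called far intronic summits here, and sequence that meets the same conditions is called eligible. The data are ChIP-seq peak lists from whole Drosophila melanogaster embryos collected over 0 to 24 h, of the strain labelled ttk-GFP, which expresses a ttk-eGFP fusion protein; the labels describe the strain as an insertion targeting ttk and give no driver. The description states that precipitation was against GFP, while the field for the antibody reads ttk. There was 1 group of 2 libraries, labelled biological replicates 1 and 2, with no second condition and no control library analysed here. No test over samples is possible with that design, read depth is unknown because the files hold peaks and no counts, and all tissues of the embryo contribute to each value.

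Tramtrack is a BTB-domain zinc-finger protein, made as a pair of isoforms with different DNA-binding fingers, and is known as a transcriptional repressor in the fly nervous system, eye, trachea and glia. It acts below receptor tyrosine kinase signalling, which in the eye removes the protein from cells that become photoreceptors. Introns of developmental genes in Drosophila often hold enhancers, the elements that set where and when a gene is transcribed, and a repressor can act through such elements at a distance from the promoter. Long introns are common in genes of signalling, transcription and neuronal adhesion and rare in genes for ribosomal proteins.

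Bases around 9 far intronic summits are printed first, since a short word recurs beside many of the far intronic summits. Averaged over all far intronic summits, A and T bases were most frequent close to the summit. Their share between copies of the word was not measured. Each line gives 251 bases of the plus strand of assembly dm6 with the summit in the middle, 5′ to 3′, and capitals mark CAGTG or its reverse complement CACTG. The first 6 are the strongest far intronic summits on arms X, 2L, 3L and 3R, and the last 3 are the next strongest on the same arms that hold a copy 50 to 125 bp from the summit on both sides, so their copies are part of how they were chosen.
CG32486 (chr3L:3060679-3060929): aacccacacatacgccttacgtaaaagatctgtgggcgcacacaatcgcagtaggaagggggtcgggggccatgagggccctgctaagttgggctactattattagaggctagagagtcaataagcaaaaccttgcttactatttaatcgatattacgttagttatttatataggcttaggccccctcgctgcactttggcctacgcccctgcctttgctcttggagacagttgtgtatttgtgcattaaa
Gug (chr3L:8458218-8458468): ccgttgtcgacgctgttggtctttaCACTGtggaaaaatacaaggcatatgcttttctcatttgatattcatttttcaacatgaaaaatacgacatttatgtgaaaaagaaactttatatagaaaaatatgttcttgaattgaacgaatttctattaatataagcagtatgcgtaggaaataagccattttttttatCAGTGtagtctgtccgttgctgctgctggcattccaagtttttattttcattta
JIL-1 (chr3L:11084655-11084905): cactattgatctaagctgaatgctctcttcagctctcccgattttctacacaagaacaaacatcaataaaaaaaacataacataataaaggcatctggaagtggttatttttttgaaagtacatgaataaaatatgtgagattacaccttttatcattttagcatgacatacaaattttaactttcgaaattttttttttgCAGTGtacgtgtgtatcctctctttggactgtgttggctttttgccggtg
aos (chr3L:16480442-16480692): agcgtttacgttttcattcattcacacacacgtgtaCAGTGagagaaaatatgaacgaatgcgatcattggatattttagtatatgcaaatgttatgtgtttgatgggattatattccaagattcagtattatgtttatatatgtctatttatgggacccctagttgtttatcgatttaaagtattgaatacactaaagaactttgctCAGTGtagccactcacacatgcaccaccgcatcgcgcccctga
Raf (chrX:2300590-2300840): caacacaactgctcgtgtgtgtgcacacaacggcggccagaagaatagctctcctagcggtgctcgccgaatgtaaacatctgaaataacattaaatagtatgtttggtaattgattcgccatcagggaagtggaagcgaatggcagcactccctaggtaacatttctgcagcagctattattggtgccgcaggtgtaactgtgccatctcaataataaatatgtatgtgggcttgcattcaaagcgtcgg
Hr4 (chrX:1947621-1947871): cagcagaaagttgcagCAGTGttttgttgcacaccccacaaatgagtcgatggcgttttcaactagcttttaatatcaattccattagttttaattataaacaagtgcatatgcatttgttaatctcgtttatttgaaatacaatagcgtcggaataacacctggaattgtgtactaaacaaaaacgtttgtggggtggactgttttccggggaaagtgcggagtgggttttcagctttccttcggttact
Hr4 (chrX:1963807-1964057): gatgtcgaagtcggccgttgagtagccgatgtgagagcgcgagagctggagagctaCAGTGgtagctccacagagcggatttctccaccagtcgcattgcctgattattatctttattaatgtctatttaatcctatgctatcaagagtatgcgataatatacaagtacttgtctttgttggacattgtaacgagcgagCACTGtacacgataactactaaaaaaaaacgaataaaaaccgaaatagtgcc
CHES-1-like (chrX:7700289-7700539): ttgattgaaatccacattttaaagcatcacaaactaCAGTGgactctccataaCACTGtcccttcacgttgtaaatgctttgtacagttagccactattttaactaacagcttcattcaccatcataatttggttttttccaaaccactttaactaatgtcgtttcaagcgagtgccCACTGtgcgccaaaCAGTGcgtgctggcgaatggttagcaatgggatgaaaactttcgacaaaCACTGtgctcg
sr (chr3R:18125117-18125367): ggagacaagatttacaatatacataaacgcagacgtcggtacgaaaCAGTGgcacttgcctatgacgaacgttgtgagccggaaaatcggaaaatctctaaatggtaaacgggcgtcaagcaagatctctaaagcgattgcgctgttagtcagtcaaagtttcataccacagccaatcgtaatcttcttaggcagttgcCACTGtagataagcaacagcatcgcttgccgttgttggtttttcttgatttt
At Gug, copies lay 98 bp to the lower and 74 bp to the higher side of the summit, and at aos they lay 87 and 85 bp away. JIL-1 had 1 copy, 78 bp to the higher side, and the first Hr4 summit had 1, 107 bp to the lower side. CG32486 and Raf had none in these bases. The second Hr4 summit had copies 67 and 76 bp away and sr 77 and 76 bp away, on the lower and higher side.

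Far intronic summits became sparser with distance from a TSS, but at each distance beyond 500 bp introns held more summits per length than sequence between genes. Eligible intron sequence added up to 36.0 Mb, 26.3% of the arms, and held 19.4 summits per Mb (exact 95% Poisson interval 18.0 to 20.9). Introns over 500 and up to 3000 bp from a TSS held 45.0 per Mb and promoters, within 500 bp of a TSS, 91.1. Sequence between genes at more than 3000 bp held 10.7 per Mb (9.56 to 12.1). Within introns the density was 29.2 per Mb at 3000 to 5000 bp, 24.1 at 5000 to 10000 bp, 16.8 at 10000 to 20000 bp and 7.83 beyond 20000 bp. Between genes it was 21.5, 13.2, 11.9 and 1.92 at the same distances. The intervals of introns and intergenic sequence overlapped at 3000 to 5000 bp and at 10000 to 20000 bp, and did not overlap at the other distances past 500 bp. They cover counting error only, and clustered summits are not independent. The lengths count every known base of the arms, and how well reads can be placed at each distance was not measured.

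**Figure D1:**
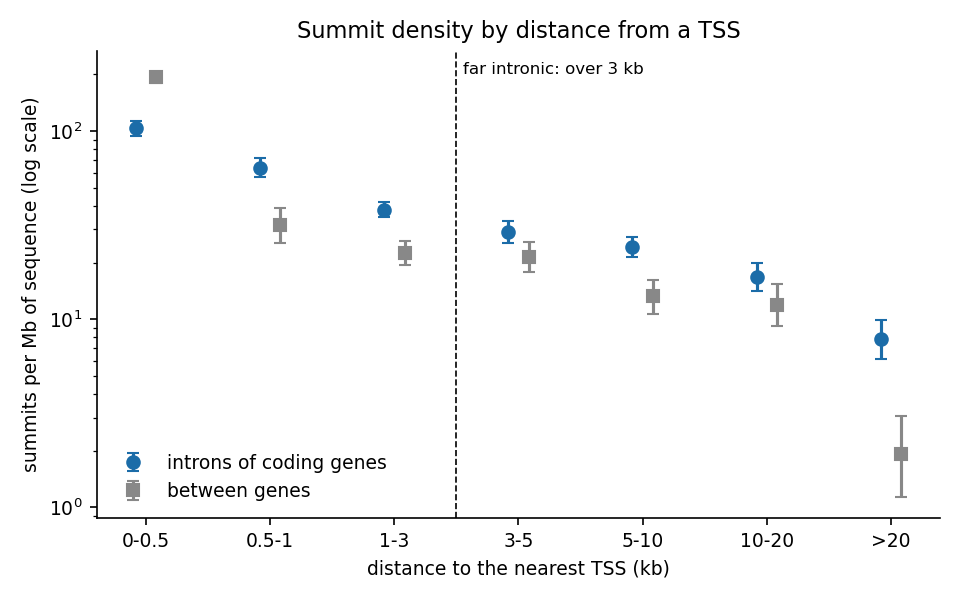
Summits per Mb of sequence (log axis) against distance to the nearest TSS in kb, for introns of coding genes (circles) and between genes (squares); bars are exact 95% Poisson intervals. Right of the dashed line lie the far intronic summits, whose density fell from 29.2 per Mb at 3 to 5 kb to 7.83 beyond 20 kb.

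The far intronic summits lay in long introns, which the limit of 3000 bp from any TSS favours by itself. No intron length of eligible sequence was measured for comparison. More of the summits than their share of sequence lay in the gene's first intron. The median intron length was 17680 bp (quartiles 9477 and 31931 bp), and the distance to the nearest TSS ran from 3005 to 53982 bp with a median of 6702 bp. More than 10000 bp separated 213 of them (30.5%) from any TSS, and more than 20000 bp separated 71. The nearest TSS was one of the host gene for 427 (61.2%). A first intron held 363 (52.0%), against 34.1% of eligible sequence. Annotated transposable elements, which cover 8.40% of eligible sequence, held 2 (0.287%); how well reads can be placed there was not measured. At the distance limit, the nearest summits inside were those of Efa6 at 3005 bp (signal 87.0) and siz at 3027 bp (158), both exchange factors for Arf GTPases. The nearest outside were in CG33158 at 2990 bp (100.1) and in the histone acetyltransferase gene chm at 2988 bp (111).

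Far intronic summits were found on the 5 large arms. X had 198, or 30.9 per Mb of eligible sequence (exact 95% Poisson interval 26.8 to 35.5), 2L 122 (22.3), 3L 129 (18.7), 2R 104 (16.9) and 3R 145 (14.7). Chromosomes 4 and Y had 0, which allows at most 10.5 and 4.35 per Mb by the same interval. X was highest in each replicate's own thresholded list, but its lead over 2L depended on the replicate. In replicate 1's list X had 20.1 per Mb and 2L 19.96, and in replicate 2's list X had 21.9 and 2L 15.4. Copy number of X in these embryos was not measured.

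Signals of the far intronic summits were lower than those of promoter summits in both replicates. Signal here means the number the authors assigned to each peak; how they normalized it is unknown. In the conservative list the median was 112 (quartiles 87.5 and 167, range 2.10 to 950), against 122 over all summits, 137 at promoters, 120 in introns over 500 and up to 3000 bp from a TSS and 105 between genes beyond 3000 bp. In replicate 1's own ranked list the medians were 63.3 for far intronic and 75.7 for promoter summits, and in replicate 2's list 55.7 and 70.0. The strongest signals were rarer too: 39 far intronic summits (5.59%) reached 300, against 12.4% of all summits and 17.4% at promoters. Over 5 equal groups of TSS distance the median signal of the far intronic summits ran from 105 to 119, in no steady order. These are descriptions, with no test.

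The replicates gave similar signals at the far intronic summits matched in both. The conservative list keeps peaks by a score of reproducibility, so agreement between the replicates was partly selected for. A peak with its summit within 150 bp was found in both replicates' ranked lists for 650 of 698 (93.1%). The log2 ratio of replicate 1 to replicate 2 at these 650 had a median of 0.14 ± 0.47 (SD over summits) and lay within 1 of equality at 622 (95.7%). It was lowest in Ac13E, an adenylate cyclase gene, with signals of 32.8 in replicate 1 and 90.3 in replicate 2. It was highest in the nuclear receptor gene ftz-f1, with 93.1 and 32.6. Both peaks entered only 1 replicate's own thresholded list. Peaks of both own lists overlapped 354 far intronic summits (50.7%, exact 95% interval 46.9 to 54.5%), where over all 3815 summits the share was 56.2%. Another 100 were in the list of replicate 1 only, 110 in that of replicate 2 only and 134 in neither. At like signal the shares were close: in the middle of 5 equal signal groups 59.5% of far intronic and 61.5% of other summits were in both lists, and in the highest 98.8% and 99.6%.

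**Figure D2:**
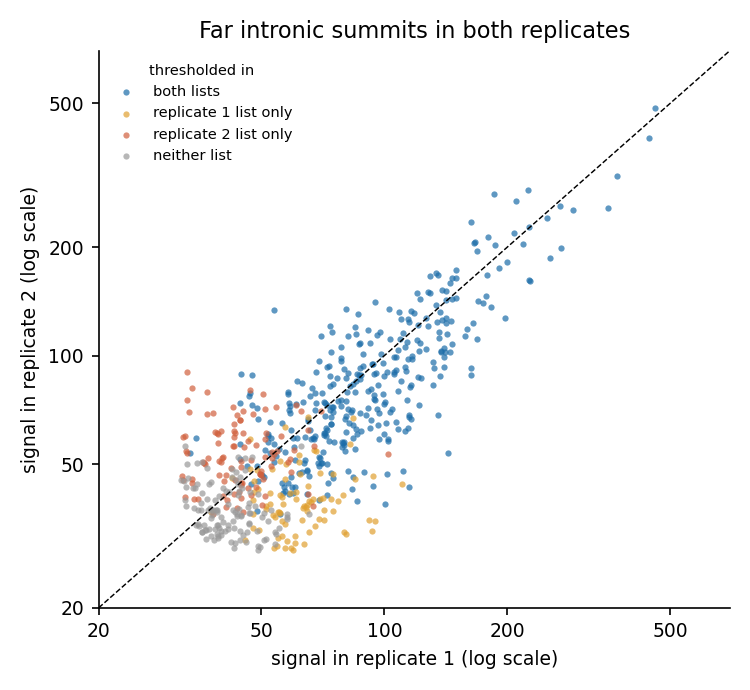
Signal of each far intronic summit in the ranked list of replicate 1 (horizontal) and replicate 2 (vertical), both on log axes, for the 650 summits matched in both lists. Colours give the own thresholded lists the peak entered, and the dashed line marks equal signal; 622 of the points lie within 1 log2 unit of it.

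The 25 strongest far intronic summits included sites in nuclear receptor genes and in genes of EGF receptor and Notch signalling. The summit of highest signal, 950 (459 in replicate 1 and 484 in replicate 2), was in a first intron of Hr3 (2R:10219923-10220209), a nuclear receptor gene of the ecdysone cascade that here overlaps CG12912 and CG46321. Hr4, another receptor gene of that cascade, had summits of 497 (250 and 241; X:1947629-1947846) and 468 (210 and 268; X:1963825-1964037). In all of these the replicates differed by less than 1 log2 unit.

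Among chromatin and corepressor genes, Gug, the fly Atrophin corepressor, had a summit of 689 (371 in replicate 1 and 315 in replicate 2; 3L:8458216-8458461). The corepressor gene sbb had summits of 606 (352 and 257) and 454 (254 and 186) within 1 intron of 49364 bp. JIL-1, a histone kinase gene, had 1 of 544 (290 and 254; 3L:11084672-11084892). Mi-2, the ATPase of the NuRD remodelling complex, and simj, a subunit of the same complex, were also hosts. The summit of 477 lies in introns of both Mi-2 and Su(Tpl), which overlap there, and reached 257 in replicate 1, with no matching peak in replicate 2. The simj summits had signals of 468 (270 and 199) and 369 (227 and 161), 18287 and 14014 bp from the gene's own TSS.

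Of the EGF receptor pathway, aos, which encodes a secreted inhibitor of the receptor, had a summit of 539 (269 in replicate 1 and 261 in replicate 2; 3L:16480449-16480679), 3083 bp from a TSS and also inside CG33158. Raf, the kinase below Ras, had 6 far intronic summits, the strongest 512 (225 and 288; X:2300597-2300825). Of the Notch pathway, the coactivator gene mam had a summit of 383 (226 and 162) and the receptor gene N 1 of 372 (191 and 175). Others among the 25 strongest were in CG32486 (834), rdx (455), which encodes a BTB adaptor of a ubiquitin ligase, the kinase genes Pak3 (449) and mnb (398), the forkhead gene CHES-1-like (430), the tendon cell regulator sr (402), the peptidase gene Nep1 (371), and atos (407), CG34417 (399), CG8034 (386) and CG6959 (370).

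Host genes were long, and many held several far intronic summits. Of 2909 protein-coding genes with eligible sequence, 396 held at least 1 (13.6%). There were 237 with 1, 83 with 2 and 76 with 3 or more, and these 76 held 312 of the 698. Overlapping peaks count separately in these numbers. Counted once, the 698 become 664, and fewer genes hold several. The host genes had a median of 20.8 kb of eligible sequence and the other eligible genes 2.06 kb. Over 5 equal groups of eligible length the share with a summit was 0, 1.20, 7.75, 20.3 and 38.8%, while the density in the upper 4 groups was 17.2, 27.5, 28.5 and 16.9 per Mb. The share of hosts thus moved with length, while the density was highest in the middle groups. Eligible sequence per gene in the longest group ran from 17.4 to 1918 kb. A host also had a promoter summit more often than an eligible gene without a far intronic summit, 26.01% against 16.8%, and within the longest group 24.8% against 8.71%; no test was made of this difference.

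The adhesion gene kirre, which acts in myoblast fusion, had the most far intronic summits, 13 in 262 kb of eligible sequence. Their strongest reached 197 (121 in replicate 1, 87.2 in replicate 2). The corepressor gene sbb had 10 in 42.1 kb and Tet, which encodes a dioxygenase that acts on methylated bases, 10 in 71.8 kb (9 with overlapping peaks counted once). NetA, a netrin guidance cue, had 7 in 44.7 kb (6 with overlapping peaks counted once). Raf, the homeodomain gene hth, the teneurin gene Ten-a, the zinc-finger gene luna, CG1677 and Pdp1, which encodes a leucine zipper factor, had 6 each (Pdp1 5 with overlapping peaks counted once). Per length, Raf had 2.89 per 10 kb and sbb 2.37, against 0.495 in kirre and 0.308 in Ten-a.

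Of 11 gene lists, 10 had members with eligible sequence, and in 9 of these the share with a far intronic summit was above the 13.6% of all eligible genes. Some hosts, such as sli and pnt, are in several lists, so the shares are not independent. The densities carry no interval and count overlapping peaks separately. Single genes weigh on them: Raf holds 6 of the 14 summits of the EGF receptor list and sbb 10 of the 48 of the developmental regulators. The lists were chosen with earlier results of these data known. The lists differ in how much eligible sequence their genes have, so the share and the density per Mb are given together, and the difference between lists was not tested. Neither the 13.6% nor the 19.4 per Mb over all eligible sequence is matched for length. In the longest group of eligible genes, from 17.4 kb, the share was 38.8%. Guidance genes (median 28.0 kb) at 31.3% and channel genes (21.6 kb) at 11.3% were below that. BTB genes (26.7 kb) at 43.8% and ecdysone genes (17.5 kb) at 47.4% were above it. Cytoplasmic ribosomal protein genes had no eligible sequence in any of 77 members.

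In the list of ecdysone response and nuclear receptor genes 9 of 19 were hosts (47.4%, exact 95% interval 24.4 to 71.1%), with 49.1 summits per Mb, against 19.4 over all eligible sequence. Beside Hr3 and Hr4, the transporter gene E23 had 4 summits, the strongest 335 (198 in replicate 1 and 127 in replicate 2), and the ETS factor gene Eip74EF had 2, the strongest 213 (86.2 and 130.1). Of the EGF receptor, FGF and Ras genes 8 of 19 were hosts (42.1%, 53.9 per Mb): after aos and Raf came the ETS effector pnt, with 186 (69.8 and 113), and the ligand-processing gene S, with 154 (115 and 43.4). Genes of the Wnt, Hedgehog and Dpp pathways had 12 of 30, at 53.4 per Mb. The strongest there were at the receptor gene fz, 367 (165 and 205) at 22178 bp from a TSS, the Dpp antagonist sog, 305 (135 and 168), the ligand gene dpp, 287 (134 and 169), and the Wnt antagonist nkd, 258 (126 and 128). The Notch list had 3 of 14 (21.4%, exact 95% interval 4.66 to 50.8%), at 20.9995 per Mb, close to the 19.4 over all eligible sequence. Its hosts were mam, N and the protease gene kuz, the last at 74.3 (44.5 and 35.8).

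BTB-domain transcription factor genes, the family of ttk itself, had 7 of 16 (43.8%, 19.8 to 70.1%), with 31.2 summits per Mb. Their signals were modest: 179 in ken (94.5 in replicate 1 and 89.2 in replicate 2), 129 in chinmo (78.8 and 55.7), 119 in ttk (64.9 and 41.4) and 111 in fru (63.5 and 50.3). The ttk gene had 2 far intronic summits in 5508 bp of eligible sequence, the other with a signal of 72.1 at 4770 bp from a TSS. The strongest of its neighbours in the gene was a promoter summit of 197.

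The list of developmental regulators, mainly transcription factor genes, had 15 of 57 (26.3%, 40.8 per Mb). Its hosts include stan, a cadherin gene, which is no transcription factor, and dysf, a bHLH-PAS factor that is also in the tracheal list. After sbb and sr the strongest were hth, with 321 (177 in replicate 1 and 146 in replicate 2), and shn, a zinc-finger partner of Dpp signalling, with 237 (138 and 103). Cell cycle and growth genes had 8 of 19 (42.1%, 34.6 per Mb), led by the Hippo pathway kinase wts at 179 (78.3 and 98.8), E2f1 at 122 (83.2 and 42.7), tara at 106 (64.7 and 37.2) and foxo at 99.8 (44.4 and 46.2). Tracheal and glial genes had 8 of 22 (36.4%, 59.5 per Mb), with sli, which encodes a guidance ligand, at 238 (141 and 103), pnt, ush at 166 (110 and 44.0) and dysf at 127 (65.2 and 67.7).

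Axon guidance and neuronal adhesion genes and ion channel and synaptic genes both have long introns. Of the guidance and adhesion genes 20 of 64 were hosts (31.3%, exact 95% interval 20.2 to 44.1%), with a median of 28.0 kb of eligible sequence and 21.8 summits per Mb. Sema1a led them at 253 (143 in replicate 1, 115 in replicate 2), followed by sli, NetA at 235 (126 and 105) and Fas3 at 223 (96.0 and 114). Of the channel and synaptic genes 6 of 53 were hosts (11.3%, exact 95% interval 4.27 to 23.03%), with a median of 21.6 kb and 6.13 summits per Mb. The intervals of the shares overlap. The strongest of them were in dnc, a phosphodiesterase gene, at 290 (138 and 152), Ih at 235 (115 and 127), rg at 130.3 (74.7 and 47.0) and Ca-alpha1T at 89.1 (39.2 and 57.1).

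**Figure D3:**
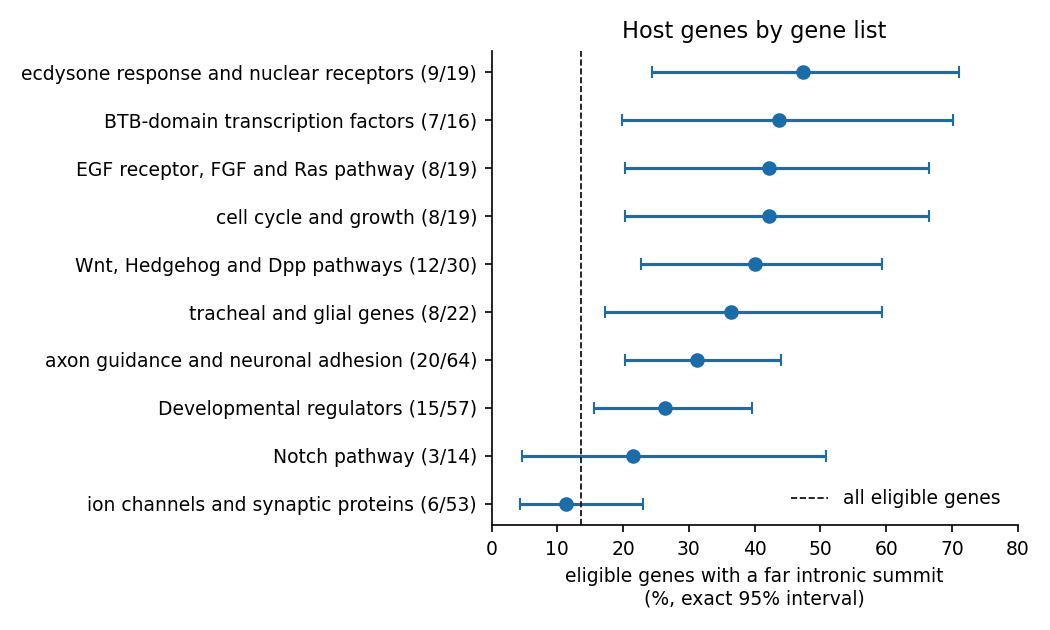
Share of eligible genes with a far intronic summit in each gene list, in percent, with exact 95% binomial intervals; hosts and eligible genes are in parentheses, and the dashed line marks the 13.6% of all eligible genes. Ion channel and synaptic genes lie at 11.3% and the other 9 lists at 21.4% or above. The dashed line is not matched for the eligible length of the genes in a list.

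The sequence under far intronic summits was richer in A and T than its own surroundings. Within 100 bp of the summit 63.4% ± 7.64 (SD over summits) of bases were A or T, against 58.5% ± 7.75 in the window of the same width 500 bp to the higher side, and the share was higher at the summit in 488 (69.9%). Over all summits the means were 63.2 and 56.9%. In steps of 25 bp the share was highest just beside the summit, at 66.6%, and 54.5 to 55.6% from 125 to 175 bp on either side.

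Of 2090 sequence words, which are all 6-mers with their reverse complements and 10 motifs of other lengths, 314 (15.0%) differed between far intronic summits and their own flanks (exact McNemar test over positions, two-sided, Benjamini-Hochberg adjusted). At the summit 182 were more frequent and 132 less frequent, and 607 had an unadjusted exact p under 0.05. In the own list of replicate 1 alone 100 words were called, and in that of replicate 2 alone 303. Of the 182, 113 held 5 or 6 A or T bases, and of the 132, 127 held 3 or fewer. The words of lowest p were of a pair of kinds. One kind overlaps CAGTG. Of these words, CAGTGC was within 100 bp of 24.6% of far intronic summits, against 7.31% of flanks and 8.13% of all windows of that length in eligible sequence (adjusted exact p = 3.60e-15), and AGTGTA of 21.9% against 6.16% and 7.84% (adjusted exact p = 3.60e-15). These counts include both strands, and the words share bases, so they are not independent. The other kind is made of A and T: ATATTA was at 33.0% against 15.6% (adjusted exact p = 6.33e-11) and TTAAAA at 44.8% against 26.1% (adjusted exact p = 3.02e-10). Fewer summits than flanks held GGCAAA (13.3% against 23.5%, adjusted exact p = 7.59e-05) and CCGGCC (1.29% against 6.02%, adjusted exact p = 0.000202). GGCAAA did not pass in the own list of replicate 1 (adjusted exact p = 0.435, the highest over 10 alternatives, from 7.04e-05).

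At far intronic summits no site reported for tramtrack itself passed the test against flanks in either direction. AGGAC, the core for the 69 kDa isoform, was at 11.2% of far intronic summits and 12.0% of flanks (adjusted exact p = 0.847), where 18.7% of eligible windows held it. GGTCCT was at 1.15% against 3.15% (adjusted exact p = 0.0851). AGGGCGG and AGGGTGG, forms for the 88 kDa isoform, were at 1.29% against 1.72% and at 1.72% against 1.72% (adjusted exact p = 0.843 and 1.0). At all other summits AGGAC was rarer than in flanks, 8.95% against 16.8% (adjusted exact p = 4.09e-19). GGTCCT and AGGGCGG were also rarer there (adjusted exact p = 1.18e-05 and 4.47e-05), and AGGGTGG did not pass (0.0907). The difference from all other summits passed for none of them (lowest adjusted exact p = 0.0944, for AGGAC). The absence of these letters from a window says nothing of where the protein can bind. GAGAG, the GAGA element, was at 23.9% against 24.4% (adjusted exact p = 0.993), and the Zelda word CAGGTA at 5.73% against 3.01% (adjusted exact p = 0.0781).

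The excess of 10 of the 2090 words (0.478%) differed between far intronic summits and all other summits (exact test of the summit-only and flank-only counts, adjusted), and 182 had an unadjusted p under 0.05. In the own list of replicate 1 alone 2 words passed, 0 of them among the 10, and in that of replicate 2 alone 3 passed, all 3 among the 10. AGTGCA exceeded its flanks by 15.8 percentage points at far intronic and 4.72 at other summits (adjusted exact p = 0.00357), and CAGTGC by 17.3 and 7.28 points (adjusted exact p = 0.0206). ATCGAT, part of the promoter element DRE, was 3.01 points below its flank at far intronic and 3.53 above it at other summits (adjusted exact p = 0.00514). The others were the longer DRE core ATCGATA, the A and T words AATTTA (4.58 and 16.6 points) and AATTAA (3.44 and 14.1 points), and GGGCAC, with GATGCA at 5.30 and -2.28 points, CGATCC at 1.00 and -4.20 points and AACAGC at -7.59 and -0.834 points. Against introns over 500 and up to 3000 bp from a TSS alone 0 words passed the same test (90 at an unadjusted p under 0.05), and against promoters alone 81 did, both comparisons chosen after seeing the data. All 10 words were among the 81. None is therefore called particular to far introns. In the own list of replicate 1 the difference of AGTGCA did not pass (adjusted exact p = 0.129), and in that of replicate 2 it did (0.0143), with a range from 0.00143 to 1.0 over 10 alternatives. For CAGTGC the adjusted exact p was 0.212 in the list of replicate 1 and 0.00238 in that of replicate 2, with a range from 0.000439 to 0.941. ATCGAT passed in neither list alone (adjusted exact p = 0.627 and 0.118), and its range was from 0.00129 to 0.941.

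Copies of CAGTG stood to both sides of far intronic summits rather than under them. The word was chosen after the 6-mer results were seen, so its values are a description with no test. Counted in steps of 25 bp on both strands, there were 15.9 copies per 100 summits at 76 to 100 bp on the lower side and 16.6 at 75 to 99 bp on the higher side. Beside the summit itself there were 3.44 and 5.59, about the level beyond 175 bp, where the steps ran from 2.87 to 6.02. A copy lay 50 to 125 bp away on either side of 391 of the 698 (56.0%). At 400 to 475 bp from the same summits the share was 20.8%, and around the centres of windows laid end to end through eligible sequence it was 22.1%. Copies on both sides were found at 120 (17.2%), against 2.01% at 400 to 475 bp and 1.58% in eligible sequence.

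**Figure D4:**
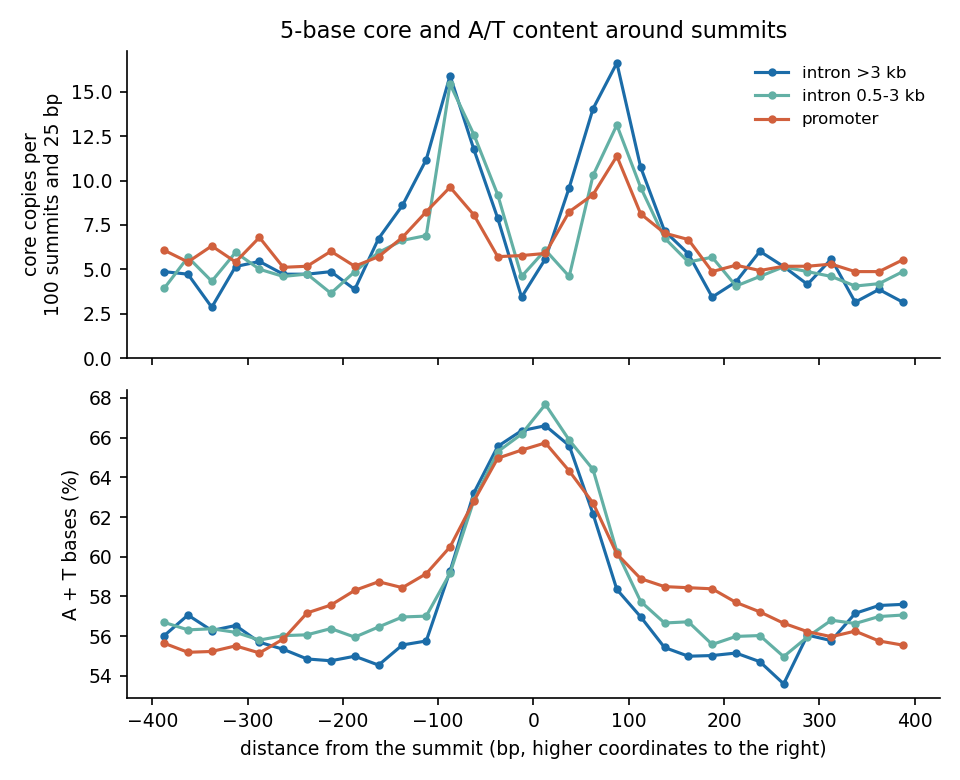
Copies of the 5-base word CAGTG on both strands per 100 summits and 25 bp (above) and A plus T bases in percent (below) against distance from the summit in bp, for introns over 3000 bp from a TSS, introns over 500 and up to 3000 bp from one and promoters. At far intronic summits the word peaks at 15.9 and 16.6 on the lower and higher side, with 3.44 and 5.59 beside the summit, where A and T are most frequent.

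Both peaks of CAGTG were present in each replicate and stronger where the signal was high. A copy 50 to 125 bp away was found at 50.9% of the 566 far intronic summits of replicate 1's own list and 57.8% of the 500 of replicate 2's, against 20.1 and 22.2% at 400 to 475 bp. It was found at 61.6% of the 354 far intronic summits in both own lists and at 44.0% of the 134 in neither. Among the 140 of lowest signal, up to 82.6, the share was 39.3%, and among the 140 of highest signal, from 185, it was 105 of 140, while at 400 to 475 bp these groups had 19.3 and 20.7%. The 3 groups between had 55.0 to 55.4%.

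The letters around the copies were uneven as well. Of 569 copies 50 to 125 bp from a far intronic summit, read so that the word is CAGTG, T stood 5, 6 and 7 bases before the word in 52.2, 53.1 and 51.3%, C stood 2 bases before it in 42.2%, and A as the second base after it in 48.9%. The T-rich end pointed toward the summit in 340 (59.8%) and away from it in 229. In other classes the letters around the copies and their direction were not examined, but copies were again found beside the summit. A copy lay 50 to 125 bp away at 49.4% of summits in introns over 500 and up to 3000 bp from a TSS. The share was 56.8% between genes beyond 3000 bp and 41.6% at promoters. At 400 to 475 bp these classes had 24.2, 25.5 and 28.8%, in the same order. The differences among classes were not tested.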

How the data were processed

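Peak lists from 2 ChIP-seq libraries of 1 group were used, in coordinates of dm6, the assembly the labels give. Per the labels, chromatin was sonicated to 200 to 800 bp. Each deposited peak carries a signal value from the authors and an IDR score. Its summit is a position the authors counted in bp from the peak's start. The score derives from the irreproducible discovery rate, and the lowest score of the conservative list was 830. Aligner, peak caller and signal normalization: not given in the sources used here. Without read counts in the files, depth is unknown.

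The conservative list over both replicates was the main list, restricted to the assembled chromosome arms. Genes, exons and TSSs came from Ensembl release 115 (transposable elements left out) and sequence came from the NCBI copy of dm6. A summit within 500 bp of a TSS was a promoter summit. A replicate's signal is read from its own ranked list, at the closest summit no more than 150 bp away. Words were searched within 100 bp of a summit and in the window 500 bp to the higher side, adjusted over all 2090 at a threshold of 0.05, after a trial on simulated windows. Symbols of 521 list entries matched by name for 495 and by synonym for 11. Another gene list is not reported here. Peaks are not replicates: p-values describe positions in this pair of libraries. The labels call the libraries biological replicates.

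The members, gene lists, words and rule for named genes were chosen with earlier results of these data known. The rule named hosts of the 25 strongest members, the 10 hosts with most members, up to 4 genes of each list, ttk, and 2 members on each side of the distance limit. Statistics used scipy 1.17.1 in Python 3.11.15, tables pandas 2.3.3 with numpy 2.4.6, and figures matplotlib 3.10.9.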

Additional observations from a re-analysis of the deposited data

How the results depend on the processing

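Of 73 alternative values of the main results, 35 moved and 38 did not, where a count had to stay within 1.5 times, a share or density within its exact 95% interval and the signal ratio within 1 SD between replicates. The SD came only from the ratios 0.927 and 0.929 of the replicates' own lists. That limit is narrow, and every alternative of the signal ratio counts as moved. By these measures numbers of summits with 1 replicate count as not moved while their densities moved. Of 430 alternative values for single words, 39 lost and 11 gained a call; ATCGAT passed in 1 of 10 alternatives and GATGCA in 3. Of these named words none that was called changed sign, but of all 314 called words 2 had the opposite sign with windows of 50 bp, 1 with 150 bp and 1 without replicate 2. The number of far intronic summits was 304 with signals at or above the median only, and 500 to 566 with 1 replicate's own list. Their share was 15.9% with signals at or above the median, 22.5% beyond 2000 bp, 12.5% beyond 5000 bp and 16.8 to 17.7% with 1 replicate. The density per Mb was 23.8 with the authors' larger list, 8.44 with signals at or above the median, 16.7 beyond 5000 bp and 13.9 to 15.7 with 1 replicate. The median signal over that of all summits was 0.913, and 0.950 with the larger list, 0.919 beyond 2000 bp, 0.892 beyond 5000 bp, 0.914 with overlapping peaks counted once and 0.927 to 0.929 with 1 replicate. With the larger list 41.2% were in both own lists, where all summits had 45.9%. Eligible genes with a summit made up 16.2% with the larger list, 11.4% beyond 2000 bp, 16.2% beyond 5000 bp and 11.7 to 11.8% with 1 replicate. Words called numbered 160 with windows of 150 bp, 204 with signals at or above the median, 166 beyond 5000 bp, and 100 (without replicate 2) to 303 (without replicate 1); of these 100 and 303, 82 and 210 were among the 314. Words whose excess differed numbered 0 with windows of 50 bp (106 at an unadjusted exact p under 0.05), 31 with 150 bp, 3 with the larger list, 1 with signals at or above the median, 3 beyond 5000 bp, 0 against introns over 500 and up to 3000 bp from a TSS, 81 against promoters and 2 to 3 with 1 replicate. With the flank to the lower side 10 were called, of which 3 were among the 10 reported, and with the flank 1000 bp away 9, of which 5 were. With windows of 50 bp CAGTGC did not pass (3.44 points, adjusted exact p = 0.0510, over a range from 2.96e-17). The cause of these changes was not tested. No paired analysis was possible because both libraries belong to 1 group. Unknown depth limits all counts of peaks.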

Other observations

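Far intronic summits came in groups about as often as other summits. The gap from a far intronic summit to the nearest other summit of any class had a median of 4917 bp, and 151 of them (21.6%) had another summit within 1000 bp, where over all summits the share was 21.7%. Along the host intron, the 5 equal parts from its start to its end held 108, 168, 160, 163 and 99 of them.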
